A study of Mus musculus with 50 samples.

Results

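The comparison is between 2 libraries of cultured mouse embryonic fibroblasts (MEF), 1 from wild-type cells and 1 from cells that lack Repeat B, labelled Repeat B or RepB. They are 2 of 50 samples in a study of the long non-coding RNA Xist that also used differentiated embryonic stem (ES) cells. All genes were taken: of 24391 genes in the table, 11680 averaged at least 1 CPM (counts scaled to a common library size) over both libraries and were measured, and 9097 had at least 20 reads assigned to a parental allele in each library. Both lines are hybrids of the strains CAST/Ei and 129/Sv/Jae and were grown in DMEM with fetal bovine serum, and the poly(A) RNA was sequenced. Reads over strain variants were given by the submitters to the 129 or to the CAST chromosome. The labels do not state whether 1 or both Xist copies of the RepB cells are deleted, whether each line is a single clone, or whether both came from the same embryo or passage. With 1 library per genotype there is no estimate of spread between cultures and no test, so genotype, line and library cannot be told apart anywhere in what follows.

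Xist is transcribed from the inactive X chromosome of female cells, coats that chromosome and silences most of its genes. Repeat B is a short cytosine-rich tandem repeat in Xist RNA that is known to recruit the Polycomb repressive complexes PRC1 and PRC2, which mark chromatin through histone H2A ubiquitination and histone H3 lysine 27 methylation. Polycomb complexes also hold down many autosomal developmental genes, such as the Hox clusters, and take part in the silencing of some imprinted genes. Fibroblasts are the main producers of extracellular matrix in connective tissue, and those of embryos keep a positional identity in the transcription factors they express.

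The wild-type library held 12126941 counts and the RepB library 18631736, of which 27.7% and 27.99% were allele-assigned. Both carried fibroblast RNA: Vim, the intermediate filament vimentin, stood at 5418 CPM in wild type and 4407 in RepB, and Col1a1, the main chain of type I collagen, at 22403 and 18103. Of 11 fibroblast identity genes measured, 9 lay below 0 after the chromosome median was subtracted (list median -0.54) and 2 were 2-fold or more lower: Thy1, a surface marker used to sort fibroblasts, with 117 reads in wild type and 0 in RepB, and Cd34, a surface marker of progenitors, with 56 and 18. Most genes that define other cell types were at or near 0 in both libraries, but Col2a1, the collagen of cartilage, had 15917 reads and 40952. Of 10 endothelial markers 4 had no read in either library and Pecam1 had 1 read and 3, while Erg had 329 and 403. Of 14 macrophage and blood markers 7 had no read in either, Ptprc among them, with a summed level of 20.4 CPM and 11.4, and of 14 skeletal muscle markers 9 had none, Myod1 among them. Of 11 epithelial markers 3 had none, and Epcam had 1 read and 2. The summed level of 12 neural markers was 503 CPM in wild type and 334 in RepB, nearly all from genes that fibroblasts also express, and Dcx, Elavl3 and Sox1 had no read. The 47 genes of the Y chromosome had 0 reads in both libraries.

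A log2 ratio of RepB over wild type was taken for each gene after TMM scaling, which sets the libraries to a common size, and a gene was called when it differed by 2-fold or more. As read, 389 genes (3.33% of those measured) were higher in RepB and 756 (6.47%) were lower. The middle 50% of genes spanned 0.62 log2 units, against 0.28 between the 2 replicate libraries of wild-type ES cells, the nearest replicate pair of the same assay, where 0.814% of 13507 genes lay past 2-fold in either direction. That pair describes ES cells and is not an error for MEF. The differences were lopsided among well-read genes. Once the median of each gene's own chromosome was subtracted, 118 genes with at least 200 reads in both libraries together were 2-fold or more higher and 357 lower, while at 16-fold or more there were 0 higher and 38 lower. There were 16 genes with at least 200 reads in wild type and at most 10 in RepB, and 0 genes with the reverse.

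Whole chromosomes differed before any single gene was considered. The genes of chromosomes 15, 3 and 10 were higher in RepB as a body, and those of chromosome 4 lower. The median log2 ratio was 0.40 on chromosome 15 (95% order-statistic interval 0.36 to 0.43, 490 genes), 0.38 on chromosome 3 (0.33 to 0.44, 565 genes), 0.33 on chromosome 10 (0.29 to 0.38, 586 genes) and -0.21 on chromosome 4 (-0.26 to -0.18, 736 genes), against 0.03 over all 11312 autosomal genes. Intervals of this kind describe the genes of these 2 libraries and not the spread between cultures. On the first 3 chromosomes between 75.9% and 77.5% of genes lay above the autosomal median, and on chromosome 4 72.7% lay below it. These 4 were the autosomes that met the rule set for a shift, at least 0.2 from the autosomal median with at least 65% of genes on that side. Chromosome 1 (-0.15) and chromosome 7 (-0.13) lay below the rule's distance, as did chromosome 5 (0.17) on the other side. In the ES replicate pair the autosomal medians ran from -0.06 to 0.03.

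**Figure D1:**
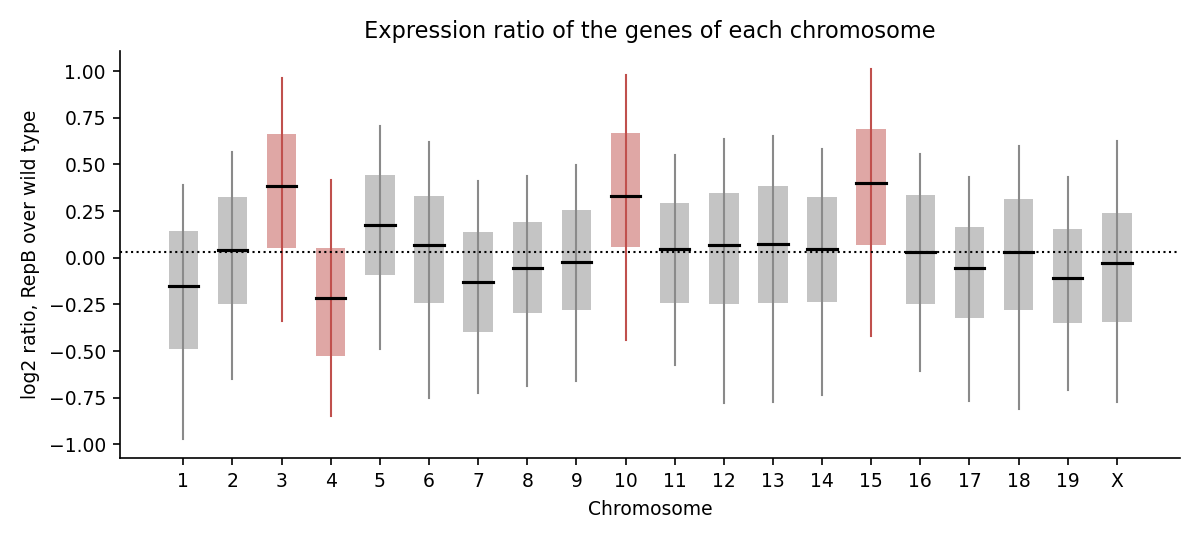
Log2 ratio of RepB over wild-type MEF for the measured genes of each chromosome: black line, median; box, middle 50% of genes; whisker, 10th to 90th percentile; dotted line, median of all autosomal genes (0.03). Chromosomes that met the rule for a shift are red: 3, 10 and 15 lie above the dotted line and 4 below it, while the X median is -0.03.

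The higher totals ran along nearly all of chromosomes 3, 10 and 15, and the lower total along part of chromosome 4. In windows of 20 Mb with at least 10 measured genes, 7 of 7 windows of chromosome 10, 6 of 6 of chromosome 15, 7 of 8 of chromosome 3 and 4 of 8 of chromosome 4 met the same rule. The windows of chromosome 15 ranged from 0.28 to 0.66 and those of chromosome 10 from 0.24 to 0.54. On chromosome 4 they ranged from -0.34 to -0.01, lowest in the last window, toward the distal end. Chromosomes 3, 10 and 15 hold 14.0% of the measured genes but 40.1% of those called higher as read (156 of 389). DNA copy number was not measured in these files.

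Reads from the parental alleles showed which copy of a chromosome differed. In RepB the median share of 129 reads per gene was 65.8% on chromosome 10, 65.9% on chromosome 15 and 60.5% on chromosome 3, from 50.8%, 52.4% and 50.7% in wild type. The level of 129 reads was 1.61-fold, 1.66-fold and 1.57-fold that of wild type on these chromosomes, and that of CAST reads 0.90-fold, 0.94-fold and 1.05-fold. The higher total on these 3 chromosomes was thus a difference in 129 reads. Myh9, the non-muscle myosin heavy chain on chromosome 15, shows it gene by gene: 9821 reads of 129 and 10368 of CAST in wild type became 17281 and 10326 in the more deeply sequenced RepB library, a 129 share of 48.6% and then 62.6%. Col6a1 on chromosome 10, a chain of type VI collagen, went from 58.9% to 72.9%, and Sec24d on chromosome 3, a coat protein of secretory vesicles, from 47.0% to 57.1%.

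Chromosomes 4 and 7 changed in allelic balance far more than in total. On chromosome 4 the median 129 share was 56.9% in wild type and 34.2% in RepB, with 129 reads at 0.54-fold and CAST reads at 1.28-fold. On chromosome 7 it was 46.1% and 65.4%, with 129 reads at 1.26-fold and CAST reads at 0.60-fold. Hspg2 on chromosome 4, the basement membrane proteoglycan perlecan, had 55.6% of its allelic reads from 129 in wild type and 33.7% in RepB. Serpinh1 on chromosome 7, the collagen chaperone HSP47, had 45.1% and 63.6%. The balance moved along the full length of both chromosomes: every 20 Mb window of chromosome 4 lay between 33.6% and 41.1% in RepB, from 55.0% to 63.1% in wild type, and every window of chromosome 7 between 64.9% and 68.2%, from 44.0% to 47.1%.

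The wild-type line was not balanced on every chromosome either. Its median 129 share was 41.0% on chromosome 1, 44.6% on chromosome 5 and 46.3% on chromosome 16, besides 56.9% on chromosome 4. In RepB, chromosome 1 stood at 49.0% and chromosome 16 at 50.0%, near the balance of the 11 autosomes whose medians stayed between 47.2% and 52.9% in both libraries, whereas chromosome 5 stood at 40.5%. Fn1 on chromosome 1, fibronectin, had 39.0% of 63471 allelic reads from 129 in wild type and 49.0% of 49736 in RepB. On chromosome 1 the CAST level was 0.80-fold and the 129 level 1.08-fold that of wild type. The line with the median farther from 50% was wild type on chromosomes 1 and 16 and RepB on chromosomes 3, 4, 5, 7, 10 and 15.

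**Figure D2:**
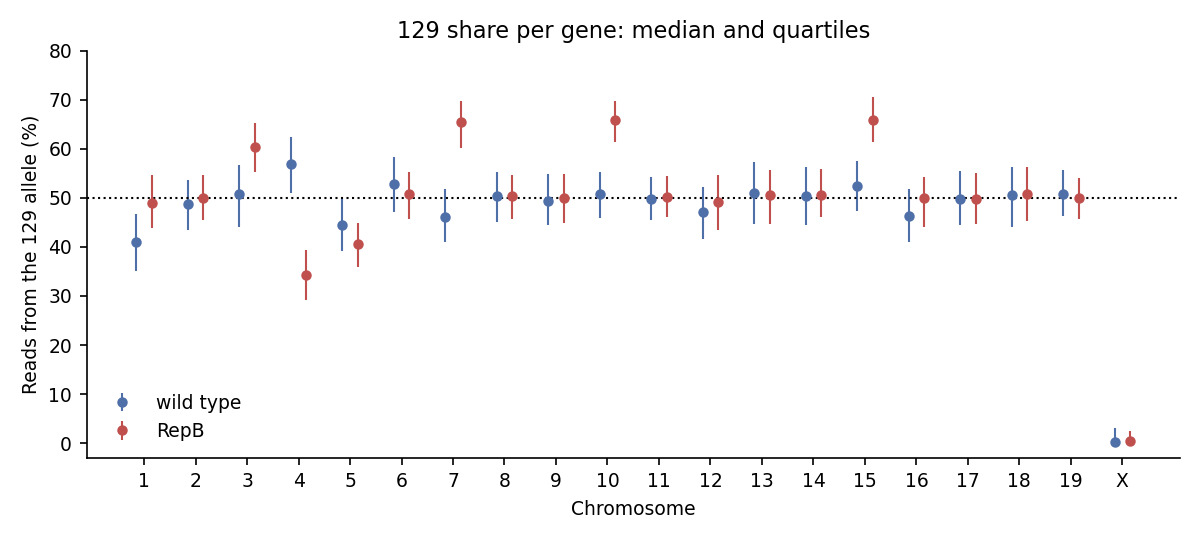
Share of allele-assigned reads from the 129 allele per gene, for each chromosome in wild-type (blue) and RepB (red) MEF: point, median over genes; bar, middle 50% of genes; dotted line, 50%. RepB lies above wild type on chromosomes 1, 3, 7, 10 and 15 and below it on chromosomes 4 and 5; both lie near 0 on the X.

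**Figure D3:**
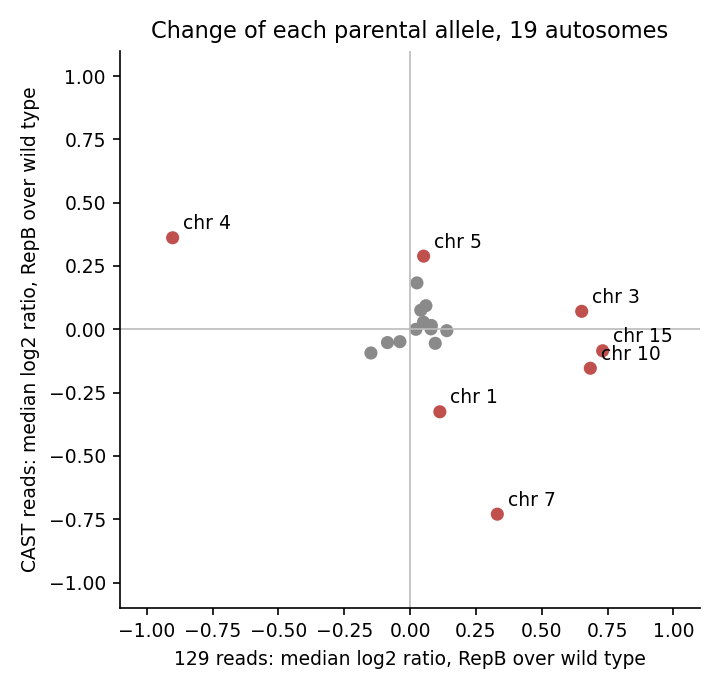
Median log2 ratio of RepB over wild type for 129 reads (horizontal axis) and CAST reads (vertical axis), 1 point per autosome, with 7 chromosomes labelled and in red. Chromosomes 3, 10 and 15 are displaced to the right, where only the 129 level is higher, while chromosomes 4 and 7 are displaced in opposite directions on both axes.

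Most single-gene shifts in allelic share followed their chromosome. A gene's share was called altered when it differed by at least 20 percentage points and the exact 95% intervals of the libraries lay apart, which cover counting error only. The 129 share was higher in RepB for 449 genes (4.94% of 9097) and lower for 389 (4.28%). Chromosome 7 held 237 of the first and chromosome 4 held 305 of the second. With the median shift of the chromosome subtracted, 100 genes (1.1%) were past the limit upward and 92 (1.01%) downward.

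Among those with at least 50 allelic reads per library, the farthest toward CAST was Cdo1, cysteine dioxygenase, on chromosome 18. It had 737 reads of 129 and 607 of CAST in wild type, and 18 and 1032 in RepB, a 129 share of 54.8% and then 1.71%, and its total was 327 CPM and 157. Sirt6, a chromatin deacylase on chromosome 10, went from 37.7% (46 of 122 reads) to 0% (0 of 113 reads, which allows up to 3.21%), against the drift of its chromosome toward 129. Rbfa, a mitochondrial ribosome factor on chromosome 18, went from 42.0% to 1.52%, and Ccdc91 from 48.6% to 3.09%. In these 4 genes the CAST level moved by less than the 129 level, with log2 ratios between -0.43 and 0.16 for CAST and between -5.92 and -4.49 for 129. Chmp2a, Irak3, Csdc2 and 2200002D01Rik moved in the same direction by between 22.9 and 28.5 points.

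Toward 129, Col18a1, the collagen that yields endostatin, went from 18.0% (78 of 433 reads) to 82.0% (82 of 100), and its total fell from 110 CPM to 16.6. The log2 ratio was -0.66 for its 129 reads and -4.87 for its CAST reads. Emilin2, an elastic fibre glycoprotein, went from 51.9% to 88.7%, Limch1 from 46.9% to 90.0%, Zfp422 from 52.9% to 95.2%, and Trim68 from 36.9% to 100% of 59 reads. Foxred2, on chromosome 15, went from 30.1% to 85.2% and was the member of this group whose total rose, from 20.0 CPM to 56.7. Rpl32 and Eno1b also moved, but both have near-identical copies elsewhere in the genome that can share reads, and their shares are uncertain. Among the most deeply read genes of chromosome 15, Col2a1, the collagen of cartilage, went from 68.6% to 96.3%; it was picked out for its depth after its values were seen.

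After the chromosome median was subtracted, 288 genes (2.47%) were 2-fold or more higher in RepB and 779 (6.67%) lower, and 262 of the 389 higher and 716 of the 756 lower genes as read were among them. Chromosomes 3, 10 and 15 then held 18.1% of the higher genes. All folds and CPM below are as read, and the calls are those after subtraction.

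The lowest genes had gone from abundant to nearly none. Nid1, nidogen, which links laminin and type IV collagen in basement membranes, had 6464 reads in wild type (558 CPM) and 8 in RepB (0.41 CPM), 0.0736% of wild type (exact 95% interval 0.0318% to 0.145%, counting error only). Mfap2, a microfibril glycoprotein, had 913 reads and 1, or 0.0651% (0.0016% to 0.364%). Khdrbs3, an RNA-binding splicing factor, had 290 and 0, and Gpx7, an endoplasmic reticulum peroxidase, 248 and 0; taken against a floor of 3 reads in the library at 0, they were at least 163-fold and 139-fold lower. Both parental copies were read in wild type where there were enough allelic reads to tell: Nid1 had 2358 reads of 129 and 1180 of CAST, and then 1 and 6.

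The other genes of the lowest 15 had 1 to 79 reads in RepB. Sfrp1 and Dkk3, secreted antagonists of Wnt signalling, had 4521 reads and 79, and 1665 and 22, 1.04% and 0.786% of wild type. Ctsz, a lysosomal protease, had 369 reads and 1, Rftn1, a lipid raft protein, 474 and 2, and Wasf3, an actin regulator, 215 and 1. Ripk3, the kinase of necroptosis, had 231 and 3. Dkk3 was read from the CAST copy in wild type, with 4 reads of 129 against 492 of CAST. Echdc2, Aplp1, Spats2l and 5730409E04Rik also belong to the group. In bulk RNA a lower level in every cell and a loss of the cells that express a gene cannot be told apart.

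The highest genes moved by less. Penk, the opioid peptide precursor proenkephalin, had 61 reads (5.26 CPM) in wild type and 622 (31.9 CPM) in RepB, 6.06-fold (4.66 to 8.02). Foxq1, a forkhead factor, had 20 and 245, or 7.28-fold (4.61 to 12.1), and Eda2r, an ectodysplasin receptor on the X chromosome and a target of p53, 16 and 184, or 6.84-fold (4.10 to 12.2). Among abundant genes, Mme, the membrane peptidase neprilysin, had 753 and 6781, or 5.35-fold (4.96 to 5.78), and Lgals3, the lectin galectin 3, 386 and 2819, or 4.34-fold (3.90 to 4.84). Nkd1, an intracellular Wnt antagonist, had 166 and 1231, Sema3a and Sema3c, secreted guidance cues, 374 and 2917, and 81 and 658, and Dlx5, a homeodomain factor of skeletal progenitors, 44 and 319. Sh3rf2, Pstpip2, Gchfr, Cda and Rnf207 also belong here, as does Rpl35a, whose reads may come from near-identical copies.

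**Figure D4:**
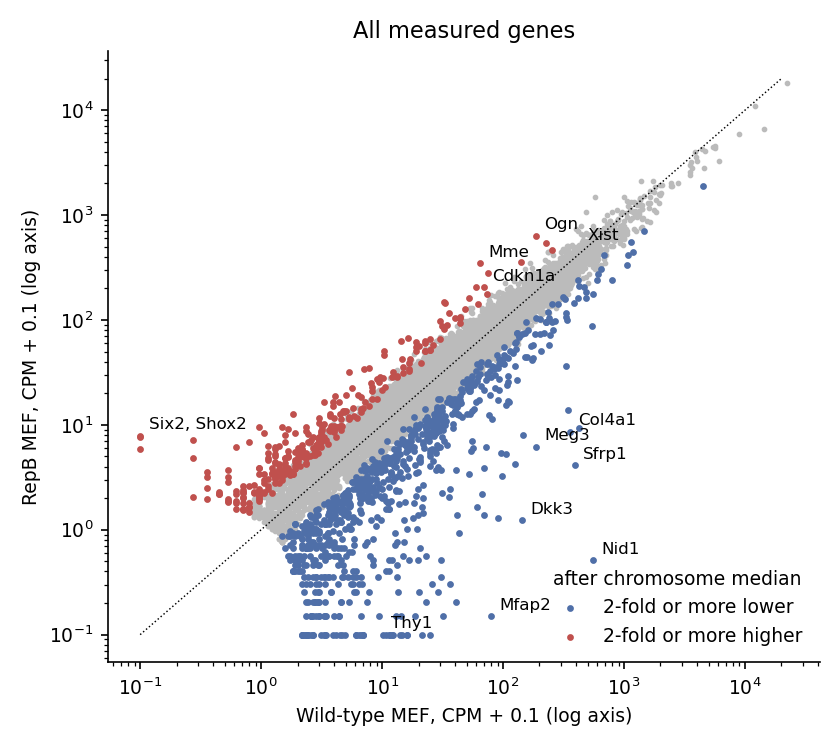
Level of each measured gene in wild-type (horizontal) and RepB (vertical) MEF in CPM plus 0.1, both axes logarithmic; dotted line, equal levels. Genes 2-fold or more lower after the chromosome median is subtracted are blue and reach far below the line (Nid1, Mfap2, Dkk3, Sfrp1), while those higher are red and lie closer to it, apart from genes with few wild-type reads such as Six2 and Shox2.

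Longer transcripts had lower ratios. The median log2 ratio after chromosome subtraction was 0.20 in the eighth of genes with the shortest exon length (up to 1356 bases) and -0.23 in the longest (6061 bases or more). This bears on lists of long genes, such as the collagens (median 6086 bases of exon) against 3016 over all measured genes, and its part in them was not tested. With the median of genes of similar length also subtracted, an alternative chosen after the data were seen, 268 genes were higher and 746 lower, and the lists are given with that median too. Calls in every gene list are to be read against 2.47% higher and 6.67% lower over all measured genes, and several small counts lie near those shares.

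Collagen genes moved unequally. Of 23 collagen genes measured, 0 rose and 8 fell, with a median of -0.35 (-0.25 with length subtracted) against 0 over all genes. The members that fell were Col4a1 and Col4a2, the common chains of type IV collagen in basement membranes, which had 4154 and 4887 wild-type reads and 166 and 179 in RepB, or 42.1-fold and 45.9-fold lower. Col4a6, a minor chain of the same network, had 230 and 8, Col14a1 74 and 4, Col15a1 60 and 10, and Col18a1 1275 and 324. Col8a1 and Col6a3 fell by smaller folds, to 0.41 and 0.39 of wild type. Col1a1 (0.81), Col1a2 (0.90) and Col3a1 (0.90 of wild type), the chains of the fibrils of connective tissue, were not called, nor were Col4a5 (0.60), Col12a1, Col16a1, Col2a1 and Col11a1.

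Of 28 other matrix genes 1 rose and 10 fell, with a median of -0.79 (-0.65 with length subtracted). Besides Nid1 and Mfap2, Fbln2, fibulin 2, fell from 1064 CPM to 331, Lama4, a laminin chain, from 57.5 to 14.2, Fbn1, the microfibril backbone fibrillin 1, from 481 to 184, Tnc, tenascin C, from 801 to 239 and Hspg2 from 4526 to 1888. Dcn, decorin, had 37 reads and 5. Ogn, osteoglycin, is the one that rose, from 185 CPM to 635. Of 16 matrix proteases and inhibitors 0 rose and 4 fell, among them Adamts2, which trims the ends of procollagen, from 178 CPM to 43.4. Of 13 smooth muscle and contractile genes 0 rose and 4 fell (median -0.61), led by Cnn1, calponin, with 1143 reads and 61.

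Secreted modulators of growth factors moved in both directions. Of 31 Wnt pathway genes 3 rose and 7 fell (median -0.11). Besides Sfrp1 and Dkk3, Wnt16 had 809 reads in wild type and 25 in RepB, while Wnt10b rose from 22.7 CPM to 63.5 and the antagonist Nkd1 from 14.3 to 63.1. Of 16 genes of the insulin-like growth factor (IGF) pathway 2 rose and 7 fell (median -0.69, or -0.35 with length subtracted). The binding protein genes split: Igfbp5 had 810 reads and 73, Igfbp4 420 and 46, and Igfbp7 3803 and 2060, whereas Igfbp6 had 18 and 175. Igf1, the growth factor itself, had 188 and 1321, and Pappa, the protease that cleaves the product of Igfbp4, 250 and 37.

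Of 31 genes of the TGF-beta and BMP pathway 2 rose and 4 fell (median -0.08). The pair that rose are ligands of joint formation: Gdf5 had 10 reads in wild type and 184 in RepB, or 10.9-fold (5.82 to 23.2), and Gdf6 had 2 and 139, or 41.3-fold (11.2 to 345). Of 19 semaphorins and their receptors 3 rose and 6 fell (median -0.52), with Sema3d (236 and 85) and Plxna2 (1245 and 466) among those lower. Of 17 genes of the FGF and PDGF pathway 2 rose and 4 fell, and the latter were the feedback regulators Spry1 and Dusp6 and the factors Etv4 and Etv5, which lie downstream of FGF signalling. Of 9 Notch pathway genes 3 fell, the target genes Hey1, Hey2 and Hes1.

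Genes that respond quickly to serum and stress were lower as a group. Of 17 immediate early genes 0 rose and 11 fell, with a median of -1.22, and with length subtracted 12 fell. Egr1 had 3812 reads in wild type and 708 in RepB, a 9.06-fold lower level, Egr2 251 and 26, Egr3 354 and 71, Nr4a1 443 and 180, and Fos 297 and 209. These transcription factors are induced within minutes of growth factor addition. Of 13 chemokine and inflammation genes 0 rose and 6 fell (median -0.95), among them C3, the central complement protein, with 782 reads and 41, and Ccl2, a monocyte attractant, with 213 and 33. Of 20 interferon and antigen presentation genes 0 rose and 5 fell (median -0.56), led by Bst2 (62 and 18) and Psmb8 (24 and 6). Of the blood cell markers, Csf1r had 136 reads and 67 and Cd68 89 and 122, while Ptprc, Itgam and Adgre1 had 0 in both libraries. Their part in these lists was not tested.

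Targets of p53 were higher, with no called difference in proliferation genes. Of 20 targets 5 rose and 0 fell, with a median of 0.44 (0.39 with length subtracted). Cdkn1a, the cell cycle inhibitor p21, rose from 68.9 CPM to 205, or 2.98-fold (2.76 to 3.22). Ccng1, cyclin G1, rose from 62.5 to 141, Perp, a p53 effector found in desmosomes, from 30.98 to 86.6, and Trp53inp1 from 8.11 to 17.6, beside Eda2r. Of 28 proliferation genes 0 rose and 0 fell (median 0.04). Mki67, a marker of cycling cells, stood at 466 CPM and 351.

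Transcription factors of body position differed gene by gene. Of 39 such factors 7 rose and 5 fell, with a median of 0.02. Six2 and Shox2, homeodomain factors of skeletal progenitors and of the proximal limb, had no wild-type read and 152 and 147 in RepB, at least 30.1-fold and 29.1-fold higher. Osr2, a zinc finger factor of palate and limb, had 21 and 161, and Meox1, a factor of the somites, 14 and 113. In the other direction Irx3 fell from 203 CPM to 72.9, Irx1 had 105 reads and 24, Tbx3 194 and 123, and Lhx2 24 and 8. Of 17 Hox genes 3 rose and 0 fell (median 0.23). The 3 are neighbours: Hoxa7 had 42 reads and 248, Hoxa9 8 and 132, and Hoxa10 2 and 92, while Hoxa6, next in the cluster, had 24 and 59 and Hoxa5 126 and 393, and neither was called. No member of the Hoxb cluster was called, with ratios from -0.17 (Hoxb9) to 0.38 (Hoxb4).

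Imprinted genes were lower in several domains. Of 29 measured, 0 rose and 13 fell, with a median of -0.72 (-0.59 with length subtracted). On chromosome 12, the non-coding RNAs Meg3, Rian and Mirg, which are expressed from the maternal chromosome, had 2171, 702 and 153 wild-type reads and 119, 30 and 5 in RepB, while Dlk1, the protein-coding gene of the same domain, had 9335 and 13572 and was not called. Dio3, at the other end of the domain, had 92 and 22. On chromosome 7, Peg3, a zinc finger gene, had 1448 and 81, its neighbour Zim1 133 and 0, the growth suppressor Ndn 1061 and 23, and the non-coding RNA H19 4014 and 270. Nnat, on chromosome 2, had 50 and 1.

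Most imprinted genes named here that could be read in both libraries kept the same main parental origin, with H19 as an exception. Meg3 had 430 reads of 129 and 5 of CAST in wild type, against 22 and 0 in RepB. Cdkn1c had 25 and 0, and then 24 and 0. Peg3 had 1 read of 129 and 368 of CAST, and then 3 and 17. Several imprinted genes that were not called, chosen here after their values were seen, kept their parent as well: the 129 share was 98.8% and 98.6% for Grb10, 95.7% and 98.0% for Igf2r, 0.79% and 0% for Mest, 2.55% and 1.62% for Plagl1 and 1.23% and 0.20% for Peg10. H19 was read from both copies, mainly CAST in wild type (375 of 129 and 505 of CAST) and mainly 129 in RepB (51 and 19). Its chromosome, 7, moved the same way, from a median 129 share of 46.1% to 65.4%, and the part of that shift in H19 was not tested.

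Polycomb subunits were called about as rarely as all genes, of which 2.47% were higher and 6.67% lower. Of 12 PRC2 genes 0 rose and 0 fell (median 0.17): Ezh2, the methyltransferase, stood at 75.2 CPM and 89.1, Eed at 26.8 and 29.0, and Suz12 at 27.4 and 41.9. Of 20 PRC1 genes 0 rose and 1 fell (median -0.03). It was Cbx7, a reader of methylated histone H3, with 79 reads and 37, while Ring1 stood at 39.7 CPM and 37.1 and Rnf2 at 39.4 and 43.9, the catalytic subunits. There were 0 calls among 15 genes of cohesin and CTCF, 15 genes of Xist partners and silencing factors, 12 genes of DNA methylation, 22 genes of the unfolded protein response and 9 Hedgehog genes. Of 22 sterol and lipid genes 1 fell, and of 19 hypoxia and glycolysis genes 1 fell, Pfkp. Among 16 oxidative stress genes Nqo1 and Gsta4 rose and the metallothionein genes Mt1 and Mt2 fell.

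**Figure D5:**
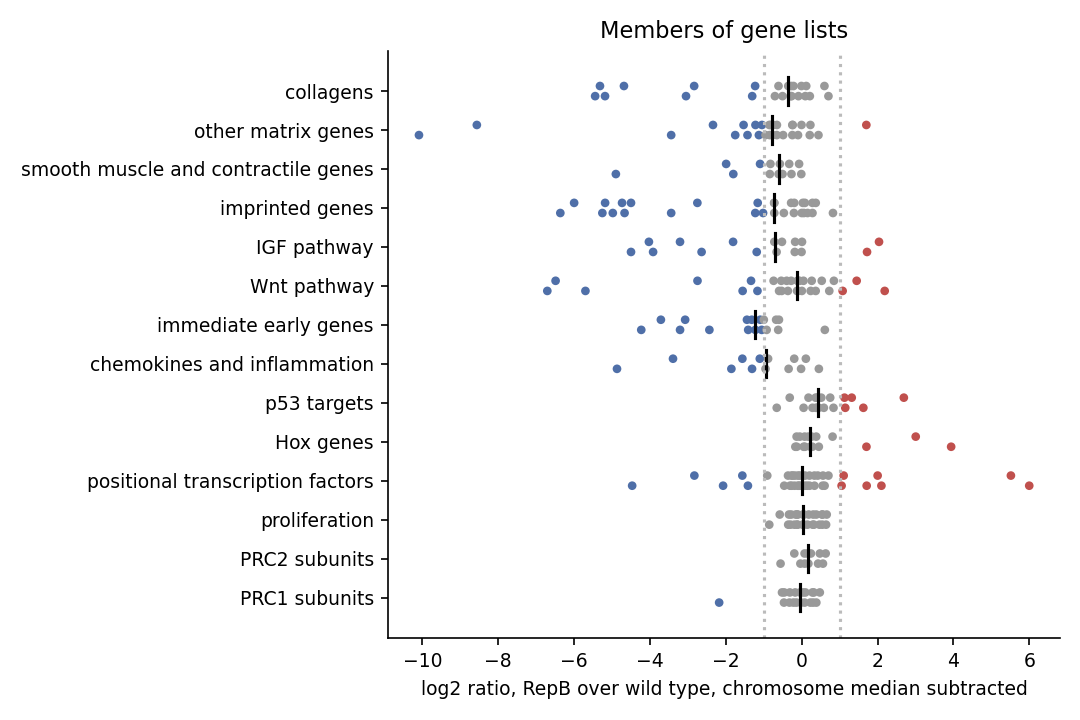
Log2 ratio of RepB over wild type after the chromosome median is subtracted, for the measured members of 14 gene lists: point, 1 gene (blue, 2-fold or more lower; red, 2-fold or more higher; grey, neither); black line, median of the list; dotted lines, 2-fold. Immediate early genes have the lowest median of those drawn (-1.22), p53 targets the highest (0.44), and the collagens and imprinted genes each have several members more than 4 log2 units below 0.

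At 13 places 3 or more consecutive measured genes lay past 2-fold on the same side after chromosome subtraction, here named runs. Of these 11 runs were lower (40 genes) and 2 higher (8 genes). How many runs would arise from 2.47% of all measured genes higher and 6.67% lower was not tested. Some runs span genes too low to be measured. In the serpin clusters, which hold similar gene copies that can share reads, Serpina3g had 843 reads and 117, Serpina3n 239 and 11, and Serpina3h 332 and 75 on chromosome 12, and on chromosome 13 Serpinb1a had 335 and 254, Serpinb6b 29 and 0 and Serpinb9 245 and 157. On chromosome 8, Irs2, an adaptor of the insulin receptor, lay in a run with Col4a1 and Col4a2, which are transcribed away from a shared promoter. Meg3, Rian, Mirg and Dio3 form another run, and Rftn1 lies in one with Daam2 and Plcl2.

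The second higher run was Ecm2, Aspn, Omd and Ogn on chromosome 13, neighbouring genes of which Aspn, Omd and Ogn encode small leucine-rich proteins of the matrix. They had 22, 864, 50 and 2148 reads in wild type and 94, 5477, 321 and 12381 in RepB, or 2.54-fold, 3.77-fold, 3.82-fold and 3.43-fold. Both alleles took part: Aspn had 32 reads of 129 and 52 of CAST and then 269 and 290, and Ogn 200 and 231 and then 1209 and 1267. The Hoxa run differed in this respect. In RepB, Hoxa7 had 1 read of 129 and 62 of CAST, and Hoxa9 0 and 47, against 5 and 11, and 1 and 4, in wild type. Mira, which opens this run with 26 reads and 170, is a transcript at the edge of Hoxa7, and since the strand used in counting is not stated, reads of overlapping transcripts cannot be told apart.

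On the X chromosome, 4 consecutive measured genes fell to almost nothing. Shroom2, an actin-binding protein, had 162 reads in wild type and 0 in RepB, at least 90.8-fold lower, and Mageh1, of the MAGE family, 80 and 0, at least 44.9-fold lower. Rragb, a GTPase of amino acid sensing, had 37 and 1, 1.61% of wild type (0.0396% to 9.53%), and Klf8, a Krüppel-like repressor, 30 and 2, 3.96% (0.459% to 15.6%). Their positions in mm9 begin at base 149044052 for Shroom2 and 149672588 for Klf8, taking the 1 exon listed for each. Genes on both sides were not called: Gpr173 had 70 and 113, Tspyl2 505 and 882, and Ubqln2 2817 and 4183. Beyond Ubqln2, Kctd12b, which lies outside the naming rule, had 30 and 0. In wild type the allelic reads of Shroom2 (17) and Mageh1 (23) were all CAST, as on most of this chromosome.

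The promoters of these 4 X-linked genes are shown because the genes are lost together, and those of Nid1 and Mfap2 because they head the list of lowered genes. Each is 300 bases long, from 250 before to 50 after a transcript start, from RefSeq on GRCm38.p6, a later build than the mm9 of the counts, with CG dinucleotides in capitals. Where RefSeq lists several starts the first is shown (Shroom2 has 4, Klf8 and Mfap2 have 2).
Shroom2 promoter, chrX:152769437-152769736, - strand: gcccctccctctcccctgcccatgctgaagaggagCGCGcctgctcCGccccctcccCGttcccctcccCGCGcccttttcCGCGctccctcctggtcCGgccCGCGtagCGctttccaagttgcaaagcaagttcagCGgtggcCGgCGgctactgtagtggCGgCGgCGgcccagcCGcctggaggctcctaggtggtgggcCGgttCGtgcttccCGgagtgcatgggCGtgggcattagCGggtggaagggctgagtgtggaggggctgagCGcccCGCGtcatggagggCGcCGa
Mageh1 promoter, chrX:153037514-153037813, - strand: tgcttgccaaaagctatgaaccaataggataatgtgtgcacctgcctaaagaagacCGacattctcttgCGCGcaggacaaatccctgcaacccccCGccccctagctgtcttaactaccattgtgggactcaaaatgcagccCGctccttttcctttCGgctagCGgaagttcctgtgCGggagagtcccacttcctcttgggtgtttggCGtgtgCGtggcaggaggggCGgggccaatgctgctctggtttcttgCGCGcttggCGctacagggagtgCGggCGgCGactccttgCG
Rragb promoter, chrX:153139708-153140007, + strand: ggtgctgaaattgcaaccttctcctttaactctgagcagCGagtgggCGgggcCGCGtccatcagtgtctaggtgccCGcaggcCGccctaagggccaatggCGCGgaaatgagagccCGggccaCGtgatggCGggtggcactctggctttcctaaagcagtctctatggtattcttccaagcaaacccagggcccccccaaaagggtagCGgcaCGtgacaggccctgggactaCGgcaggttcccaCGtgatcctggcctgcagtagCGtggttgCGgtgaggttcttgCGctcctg
Klf8 promoter, chrX:153237498-153237797, + strand: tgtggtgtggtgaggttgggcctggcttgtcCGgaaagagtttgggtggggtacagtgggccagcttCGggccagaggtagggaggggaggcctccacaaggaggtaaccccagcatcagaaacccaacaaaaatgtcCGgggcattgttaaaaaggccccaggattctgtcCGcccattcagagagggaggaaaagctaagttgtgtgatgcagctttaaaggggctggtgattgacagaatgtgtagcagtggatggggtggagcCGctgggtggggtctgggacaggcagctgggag
Nid1 promoter, chr13:13437352-13437651, + strand: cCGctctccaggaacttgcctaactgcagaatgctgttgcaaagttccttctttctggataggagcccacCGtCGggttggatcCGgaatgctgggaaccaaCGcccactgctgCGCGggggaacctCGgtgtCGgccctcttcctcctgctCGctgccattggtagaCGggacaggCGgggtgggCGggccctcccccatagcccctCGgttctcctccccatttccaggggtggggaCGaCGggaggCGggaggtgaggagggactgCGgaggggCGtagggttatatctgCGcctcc
Mfap2 promoter, chr4:141010431-141010730, + strand: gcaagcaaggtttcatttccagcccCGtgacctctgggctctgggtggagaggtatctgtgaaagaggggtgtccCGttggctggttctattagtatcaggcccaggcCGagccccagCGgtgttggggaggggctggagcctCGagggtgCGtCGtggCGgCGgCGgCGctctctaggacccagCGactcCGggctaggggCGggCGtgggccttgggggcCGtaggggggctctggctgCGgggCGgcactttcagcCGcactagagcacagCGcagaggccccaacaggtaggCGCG
The number of CG dinucleotides, counted on the strand shown, is 29 for Shroom2, 18 for Mageh1, 18 for Rragb, 5 for Klf8, 20 for Nid1 and 22 for Mfap2, against a median of 7 over 32851 promoters of the table, of which 34.6% have at least 15. The 5 other than Klf8 are thus dense in CG, the dinucleotide at which DNA is methylated, but methylation was not measured here. A promoter was matched for 76.4% of measured genes, and lowered genes were not compared with the rest on it.

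The X chromosome as a whole lay near the autosomes. Its median log2 ratio was -0.03 over 368 genes, and 10 genes were 2-fold or more higher (2.72%) and 30 lower (8.15%), both as read and after subtraction. Xist had 4908 reads in wild type (423 CPM) and 9796 in RepB (502 CPM), 1.19-fold (1.15 to 1.23). Counts over the whole gene, which spans 17918 bases of exon, do not check that Repeat B is missing. Its antisense partner Tsix had 0 reads under its own name in both libraries, but without strand any Tsix reads that overlap Xist cannot be told apart. Xist came from the 129 chromosome in both lines, in 99.7% (1462 of 1466) and 99.2% (3091 of 3117) of allelic reads, so that the X that carries it is the 129 X. Other X-linked reads came mostly from CAST: the median 129 share over 211 genes was 0.20% in wild type and 0.45% in RepB.

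Genes with reads assigned to the Xist-bearing X were mostly shared by the lines. A 129 share above 10% was seen in 28 genes in wild type and 32 in RepB, 25 of them in both, Xist included. Known escape genes were among them: Kdm5c, a histone demethylase, had 31.7% and 38.5%, Ddx3x, an RNA helicase, 20.6% and 25.5%, and Pbdc1 17.5% and 32.7%, while 5530601H04Rik had 50.0% and 40.7%. Syap1 and Shroom4, also on the escape list, were at 0% in both. Some genes in the count were read mainly from 129 in both libraries, such as Ngfrap1 (100% and 100%), Cox7b (95.7% and 92.9%) and Rbm10 (64.7% and 69.0%). Whether such reads were assigned to the right allele was not tested. With Xist left out and reads pooled over 210 genes, the 129 share was 3.57% (3.43% to 3.72%) in wild type and 4.81% (4.67% to 4.96%) in RepB. Part of that difference came from genes read mainly from 129 in a library, Rps4x among them. Over the 206 genes under 80% in both libraries the share was 2.90% (2.77% to 3.04%) and 3.59% (3.47% to 3.72%). For reference, in the differentiated ES cells of the same study the median share of X-linked genes was 5.08% and 6.02% in the wild-type libraries and 35.2% and 33.6% in those with a homozygous deletion. Since neither the zygosity nor the stage at which the MEF lost the repeat is in the labels, the ES values stand beside the MEF values without a comparison.

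For 5 X-linked genes the 129 share differed by at least 5 points with intervals that lay apart, some of them narrowly. Sh3kbp1, an endocytic adaptor, had 2 of 151 reads from 129 in wild type (1.32%) and 70 of 342 in RepB (20.5%), and Timp1, a metalloproteinase inhibitor, 0 of 166 and 25 of 279 (8.96%). In the other direction Apex2, a DNA repair nuclease, had 19.8% and 2.87%, Rbbp7, a histone-binding subunit of PRC2, 80.6% and 67.6%, and Plp2 60.5% and 52.0%. Rbbp7 and Plp2 were thus read mainly from the Xist-bearing X in both libraries, and the allele assignment of their reads was not tested. Total levels of all 5 were within 2-fold. Rps4x rose from 34.3 CPM to 89.2 but has near-identical copies, and its value is uncertain.

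In the lists of X-linked genes the counts are read against 2.47% higher and 6.67% lower over all genes. Of 40 genes known to be silenced on the inactive X 0 rose and 1 fell, with a median of -0.02. It was Fhl1, a muscle LIM protein, from 204 CPM to 50.9. Flna, filamin A, one of the most abundant, stood at 6069 and 3267. Of 14 escape genes 0 rose and 1 fell, Shroom4, a relative of Shroom2, from 45.3 CPM to 11.8, and Syap1, Pbdc1 and 5530601H04Rik had ratios between 1.61 and 1.72. In the X inactivation centre 6 genes were measured, of which 0 rose and 1 fell. The non-coding neighbours of Xist, Ftx and Jpx, had 73 reads and 191, and 10 and 34, and Chic1 21 and 64. Their folds were 1.56 (1.18 to 2.07), 2.02 (0.976 to 4.59) and 1.81 (1.09 to 3.12). With the prior count of 2 of the calling rule, scaled to library size, none of the 3 was called.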

How the data were processed

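Reads per gene were compared between 1 wild-type and 1 RepB MEF library. The authors deposited whole-number counts for all reads and for reads of each allele, in columns headed mus and cas (129 and CAST, by the strains in the labels); per the file headers, the layout is that of featureCounts. Per the submitters' processing notes, the tools of the series were bedtools, cutadapt, featureCounts, HOMER, Juicer, Novoalign, SAMtools and TopHat, with build mm9; versions, roles and strand setting are not given in the sources used here. The table lists the position of 1 exon per gene.

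Counts were scaled by TMM in edgeR 4.0.16 (R 4.3.3) and log2 ratios taken with a prior count of 2 for genes averaging at least 1 CPM; the ES wild-type pair was treated likewise. Ratios and shares have exact Clopper-Pearson 95% intervals from scipy 1.17.1, which cover counting error only, since no molecular identifiers are stated. A library at 0 was given a floor of 3 reads; genes at 0 stay on the same side of their list's median at that floor. The steps were tested on simulated data. Of 50 samples, 44 were not analysed here.

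Genes were named by rule: the 15 highest and 15 lowest ratios after subtraction with at least 200 reads in both libraries together, up to 4 members per list farthest from 0, the 8 largest share shifts each way with at least 50 allelic reads per library, runs, and Xist; other list members are named as examples, and some genes that the rule names are not reported here. Members, rules and lists were chosen with earlier results of these data known.

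Alternatives were DESeq2 1.42.0 size factors, total counts, other prior counts, expression filters and allelic minimums, local instead of chromosome medians, pooled reads, and an exon length median over 501 genes.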

Additional observations from a re-analysis of the deposited data

How the results depend on the processing

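No paired analysis was possible because each genotype has 1 library, and for the same reason none could be left out. With DESeq2 size factors 368 genes were higher and 771 lower as read; with total counts these were 565 and 656, so that 46.3% of calls were higher against 34.0% with TMM, and the median of all genes was 0.16 against 0.03. Of 118 alternative values for counts and chromosomes 101 kept their direction and size, 17 moved and 0 reversed. With at least 5 CPM, 223 genes were higher and 432 lower as read, and 134 and 444 after subtraction. With all genes that had a read these were 793 and 1395, and 676 and 1477. With at least 50 allelic reads, 59 genes had a higher and 57 a lower 129 share after subtraction. With at least 30 points, 120 and 110 did as read, and 43 and 43 after subtraction. With pooled reads the 129 share differed by -20.9 points on chromosome 4, 13.4 on chromosome 15 and, with Xist included, 2.43 on the X, against medians of -21.9, 12.7 and 0. Of 733 further values, for single genes, lists, other chromosome values and the median of all genes, 22 moved and 2 reversed. Those that reversed were the medians of the cartilage markers (0.10) and the bone markers (0.0033) with all genes that had a read, from -0.51 and -0.27. Depth limits the low genes: 3 reads are 0.26 CPM in wild type and 0.15 in RepB.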

Other observations

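Genes typical of skeletal connective tissue split in these fibroblasts. Of 11 cartilage markers 6 were measured, and Acan, the proteoglycan aggrecan, fell from 43.4 CPM to 12.2 while Comp, a cartilage matrix protein, rose from 1.55 to 3.75. Col2a1, counted above with the collagens, was far more abundant, with 15917 reads and 40952 (log2 ratio 0.61), and was not called. Col10a1, a marker of mature cartilage, had 41 reads and 166 and was not called after the median of chromosome 10 was subtracted. Of 9 bone markers 3 were measured: Spp1, osteopontin, fell from 37.5 CPM to 12.5, and Runx2, the bone master regulator, stood at 46.9 and 45.5. Of 9 adipocyte markers 4 were measured and 0 were called, with Fabp4 at 45 reads and 114. Of 15 genes that respond to YAP and SRF, the factors that read cell stretch, 0 rose and 2 fell. Those 2 were Ctgf, from 597 CPM to 243, and Ankrd1, from 39.6 to 13.5, where 6.67% of all genes were lower.

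Of 6 neural markers measured 4 fell, among them Stmn2, a microtubule regulator, with 78 reads and 4, and Tubb3, a neuronal tubulin that fibroblasts also express, from 85.3 CPM to 22.2. Of 2 Schwann cell and neural crest markers measured, Mbp fell, with 52 reads and 21, while Sox10 had 0 reads in both libraries. Krt19, a keratin, had 45 reads and 9.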
